A study of Mus musculus with 10 samples.

Results

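The genes described here are 10 immediate early and dissociation response genes, Fos, Fosb, Jun, Junb, Jund, Egr1, Atf3, Ier2, Dusp1 and Zfp36, out of 25233 entries with a gene symbol. They were chosen by name, as genes that cells switch on within minutes of a stimulus and that are often raised by enzymatic dissociation of a tissue, and all 10 were present and tested among 14630 genes. RNA sequencing was performed on 10 preparations of sorted liver cells from male C57BL/6J mice. The 5 hypHSC preparations (hypertrophied hepatic stellate cells) came from mice fed CDAHFD, a choline-deficient high-fat diet low in methionine that gives a fatty, fibrotic liver, for 13 weeks (hypHSC 1 and 2, mice aged 19 weeks) or 12 weeks (hypHSC 3, 4 and 5, aged 18 weeks). The 5 qHSC preparations (quiescent hepatic stellate cells) came from mice on a standard diet aged 36 weeks (qHSC 1, 2 and 5) or 34 weeks (qHSC 3 and 4). All livers were perfused with collagenase and dispase before a density gradient and cell sorting, and the sorted cells fell directly into lysis buffer. CDAHFD livers received more enzyme, a faster flow, a longer incubation at body temperature and antibiotics, and hypHSCs were gated on green and qHSCs on blue fluorescence. Diet, age, digestion and gate therefore changed together, and their parts in any difference below cannot be told apart.

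Immediate early genes need no new protein to be transcribed: kinases such as ERK, JNK and p38 act on factors already bound at their promoters, and the mRNA rises and decays quickly. Fos, Fosb, Jun, Junb and Jund encode subunits of AP-1, a dimeric transcription factor, and Atf3 encodes a stress-induced partner of JUN proteins that is often a repressor. Egr1 encodes a zinc finger transcription factor and Ier2 a small nuclear protein, whereas Dusp1, a phosphatase of MAP kinases, and Zfp36 (tristetraprolin), which binds AU-rich elements and speeds the decay of inflammatory mRNAs, end the response. In the liver these genes respond to injury, partial hepatectomy and the isolation of cells.

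Promoter sequences are shown for Fos, Fosb and Dusp1, because between them they hold several control elements of this response. They are RefSeq sequences, which were found for 8 of the 10 genes (not for Egr1 and Ier2), and lie before the RefSeq start of the gene. For 6 of the 8 genes that start lay within 4 bases of the start of the gene in the deposited table. For Atf3 and Zfp36 it lay 34706 and 1025 bases inside the span of the deposited table, so their sequences are not described. The stretches shown run 5′ to 3′ on the strand of the gene, begin 150 bases before the RefSeq start and end before the first base of any exon of the gene in the GENCODE annotation. Each matched 1 place on its chromosome of the GRCm39 genome, namely chr12:85520514-85520657 (plus strand) for Fos, chr7:19043977-19044120 (minus strand) for Fosb and chr17:26727507-26727596 (minus strand) for Dusp1. Capitals mark the motifs searched on both strands.
Fos: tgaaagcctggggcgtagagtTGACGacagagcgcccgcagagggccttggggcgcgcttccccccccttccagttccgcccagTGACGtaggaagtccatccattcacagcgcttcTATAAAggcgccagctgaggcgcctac
Fosb: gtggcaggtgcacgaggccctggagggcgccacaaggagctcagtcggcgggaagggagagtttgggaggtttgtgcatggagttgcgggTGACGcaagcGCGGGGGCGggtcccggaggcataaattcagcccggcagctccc
Dusp1: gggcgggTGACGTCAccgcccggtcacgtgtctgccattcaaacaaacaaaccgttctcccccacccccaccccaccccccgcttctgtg
The Dusp1 promoter held the whole cAMP response element (CRE) TGACGTCA, 143 to 136 bases before the RefSeq start, a match found in 1.55% of 32851 promoters over the 250 bases before the start. Fos held its shorter core TGACG 129 to 125 and 66 to 62 bases before the start and a TATA box (TATAAA) 33 to 28 bases before it, and Fosb held the core 60 to 56 bases before it. The core, which also lies inside the whole CRE, was found in 4 of the 6 promoters (Fos, Fosb, Junb and Dusp1) and in 17.77% of all promoters, and TATAAA in 12.37% of all promoters. Fosb also held the EGR site GCGNGGGCG, 50 to 42 bases before the start, which was present in 4.7% of all promoters. The AP-1 site TGANTCA and the CArG box, the site of serum response factor, were found in 0 of the 6 windows and in 6.75% and 1.47% of all promoters. Only exact matches were sought, and sites farther than 250 bases before the start were not searched. These matches describe letters, not bound sites.

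The hypHSC libraries held 30534719 to 43283589 reads on genes with a symbol and the qHSC libraries 35640104 to 47317028, so that the scarcest of the 10 genes, Fosb, still had at least 182 reads in every library. Mitochondrial reads made up 2.21% to 12.8% of reads in hypHSCs, highest in hypHSC 1 and next in hypHSC 2 (7.27%), and 1.25% to 1.61% in qHSCs. All 10 samples are labelled hepatic stellate cells. In hypHSCs the 9 stellate cell markers listed went against that label, being all called lower there, with summed normalized counts of 20433 to 47882 against 811434 to 1200060 in qHSCs. Genes of collagen-producing cells outside that list, named after their values were seen, were not called: the mean normalized count of Col3a1 was 11518 in hypHSCs against 16584, and that of Col1a2 was 7684 against 7505. Of 8 macrophage and Kupffer cell markers 6 were called higher and 0 lower, with sums of 962745 to 1165260 in hypHSC libraries. Among qHSCs the sums were 75556 in qHSC 4, 34984 in qHSC 1 and 2950 to 6515 in the others. In hypHSCs the sums were mostly Lyz2 (mean 845670) and Cd68 (mean 157270). The 2 markers not called were Clec4f (4930 in hypHSCs against 5953 in qHSCs) and Timd4 (17.8 against 505). In these bulk libraries fewer cells of a type and less RNA per cell cannot be told apart. The neutrophil and cholangiocyte markers tested (3 of 3 in each list) were also called higher in hypHSCs, 0 of 5 hepatocyte markers were called, and of 5 sinusoidal endothelial markers tested 1 was higher and 1 lower. The part of cell makeup in the differences of the 10 genes was not tested.

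The 10 genes did not move as a block. A gene was called where the log2 fold change between hypHSCs and qHSCs was at least 1 in size and the limma adjusted p, corrected over all genes tested, was at most 0.05. Atf3 was called higher in hypHSCs, 1 of 10, where 17.8% of all genes tested were called higher. Fosb and Ier2 were called lower, 2 of 10, where 21.7% of all genes were. These shares were near those of all genes. Fos and Junb had an adjusted p within the threshold but too small a fold, and for Jun, Jund, Egr1, Dusp1 and Zfp36 the adjusted p missed it. The log2 fold change was negative for 7 genes and positive for 3 (Atf3, Dusp1 and Jund), with a median of -0.91 against -0.20 over all genes tested. The values of the 5 hypHSC libraries lay wholly above those of the qHSC libraries for Atf3 and wholly below them for Fosb and Ier2, as they did for 17.6% and 22% of all genes.

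**Figure D1:**
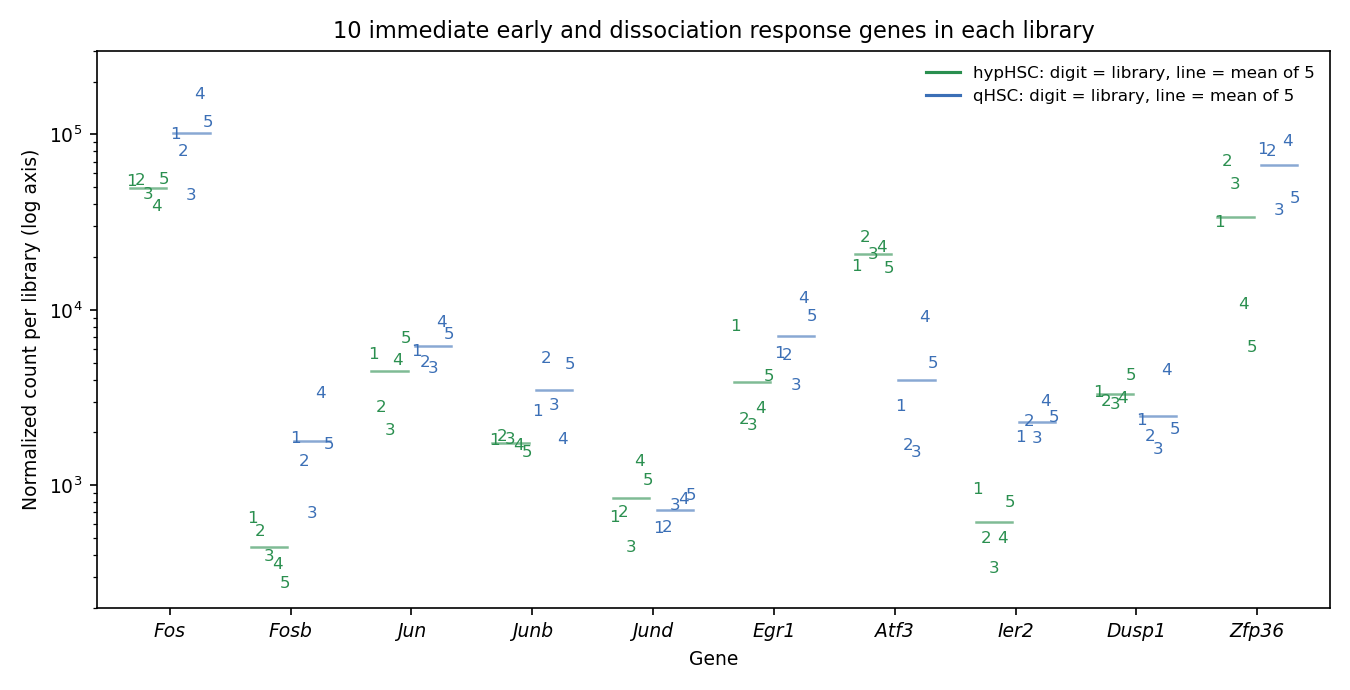
Normalized count (log axis) of each of the 10 genes in each library. A digit is a library, green for hypHSCs and blue for qHSCs, and a line is the mean of 5. Only for Atf3, Fosb and Ier2 do the green and blue digits not overlap.

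Other scalings shifted all genes alike, which changed the calls and turned the sign of Jund and Dusp1. With the deposited size factors 45% of all calls were higher in hypHSCs, against 32.4% when libraries were scaled to the same total and 17.4% when they were scaled on Hprt, Pgk1 and Actb, which were among the reference genes of the study's qPCR, and the median log2 fold change of all genes went from -0.20 to -0.54 and -1.12. Relative to that median, Atf3 stood 2.89, 2.88 and 2.88 above it on the log2 scale under the 3 scalings, Fosb at -1.71, -1.72 and -1.72, and Ier2 at -1.77, -1.78 and -1.79. Each scaling divides a library by 1 factor, so these distances could hardly change and do not test the result. With DESeq2 and edgeR on whole reads the distances from the median were 2.43 and 2.42 for Atf3. They were -1.978 and -1.985 for Fosb and -1.839 and -1.846 for Ier2. The genes called lower were 2 with the deposited factors, 6 with equal totals (Fos, Fosb, Junb, Egr1, Ier2 and Zfp36) and 7 with the reference genes (Jun in addition), while Atf3 was called higher under each of them.

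**Figure D2:**
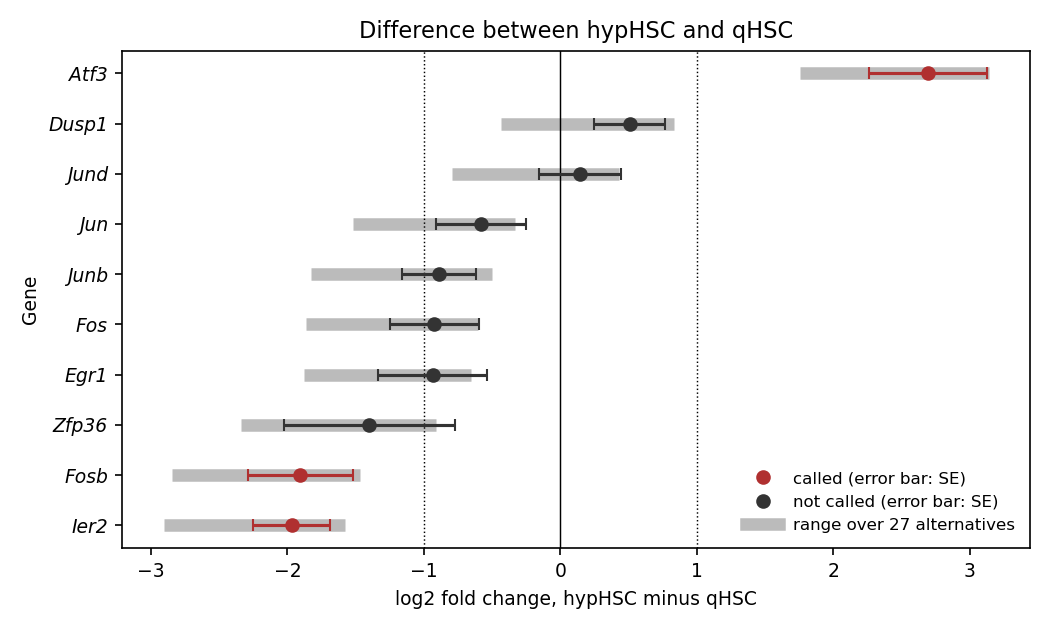
Log2 fold change (hypHSC minus qHSC) of each gene with its limma standard error as a bar, 5 libraries against 5. Red points were called and dark points not, dotted lines mark a log2 fold change of 1 in either direction, and grey bands give the range over 27 alternative analyses. The bands of Jund and Dusp1 reach to both sides of 0.

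Per length, with the exon lengths used here, Fos was the most abundant of the 10 transcripts in both groups. In FPKM (reads scaled to exon length and library depth) it reached 504 ± 82.3 in hypHSCs and 1315 ± 588 in qHSCs (SD, n = 5), which placed it 75th and 26th among 23200 genes. Zfp36 followed with 244 ± 201 and 581 ± 220 FPKM (165th and 50th). The exon length used for Zfp36, 3502 bases, takes in the whole gene with its intron, so its FPKM may be too low. In normalized counts Zfp36 exceeded Fos in hypHSC 2 (69702 against 54574) and hypHSC 3 (51525 against 45533) and was below it in all other libraries. Whether its place below Fos depends on that length was not tested. Atf3 came next in hypHSCs with 205 ± 44.7 FPKM (187th) and after Jun in qHSCs with 49.7 ± 39.0 FPKM (768th). The next places in hypHSCs were taken by Jun (32.5 FPKM), Dusp1 (23.8), Egr1 (20.6), Junb (17.7), Jund (11.8), Ier2 (9.50) and Fosb (1.72). Several neighbours in this order could not be separated: in hypHSCs Zfp36 exceeded Atf3 in 3 of 5 libraries, Jun exceeded Dusp1 in 3, Egr1 exceeded Junb in 2 and Junb exceeded Jund in 3. In qHSCs the order after Fos and Zfp36 was Jun (59.5 FPKM), Atf3, Egr1 (47.9), Ier2 (45.7), Junb (44.2), Dusp1 (22.9), Jund (13.2) and Fosb (8.72), and Atf3, Egr1, Ier2 and Junb were interleaved, each exceeding the next in 2 or 3 of 5 libraries. Exon lengths and exon counts are those of GENCODE, whereas the coordinates given below are those of the deposited table. The deposited entries of Ier2, Junb and Jund reach beyond the GENCODE genes, so their FPKM may be too high. For Dusp1 the GENCODE exons reach beyond the deposited entry, so its FPKM may be too low. Neither was tested. Together the 10 genes took 0.194% to 0.397% of the reads on genes in hypHSC libraries and 0.322% to 0.933% in qHSC libraries, ranges that overlapped.

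Fos (chr12:85520663-85524048, 4 exons), the FOS subunit of AP-1, had normalized counts of 54066, 54574, 45533, 38644 and 55538 in hypHSC 1 to 5. In qHSC 1 to 5 the counts were 99951, 80012, 44636, 169583 and 117525. The hypHSC libraries were close to each other, and 4 of the 5 qHSC libraries lay above all of them, while qHSC 3 fell inside their range. The means were 49671 ± 7357 and 102341 ± 46331 (SD, n = 5), a log2 fold change of -0.92 (SE 0.33, limma adjusted p = 0.0352, exact permutation p = 0.0397), which stayed short of the fold required for a call. Without qHSC 3 it was -1.19 (adjusted p = 0.0048) and passed, whereas without qHSC 1 and 4, the qHSC libraries with the most macrophage marker counts, it was -0.61 (adjusted p = 0.197).

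Fosb (chr7:19036621-19043971, 4 exons), the closest relative of Fos, had 645, 545, 392, 353 and 275 normalized counts in hypHSC 1 to 5 and 1849, 1365, 689, 3352 and 1701 in qHSC 1 to 5. The lowest qHSC library, qHSC 3, was just above the highest hypHSC library, hypHSC 1, which also had the largest share of mitochondrial reads. Fosb was 3.74-fold lower in hypHSCs (log2 fold change -1.90, SE 0.39, adjusted p = 0.00189, exact permutation p = 0.00794, the smallest the design allows). Tested against a fold of 1 on the log2 scale rather than against no change (limma treat), its adjusted p was 0.0824. Fosb was also scarcer relative to Fos in hypHSCs: the ratio of Fos to Fosb in FPKM was 222 to 534 in hypHSC libraries and 134 to 183 in qHSC libraries, without overlap. Of the FOS-related genes Fosl1 and Fosl2, Fosl1 rose 2.32 on the log2 scale (adjusted p = 0.00928) at low counts of 141 ± 58.1 against 36.8 ± 35.6, and Fosl2 had a log2 fold change of 0.43 (adjusted p = 0.0504).

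Jun (chr4:94937273-94940459, a single exon), the founding partner in AP-1 dimers, had 5561, 2785, 2048, 5126 and 6877 normalized counts in hypHSC 1 to 5 and 5813, 5038, 4636, 8456 and 7265 in qHSC 1 to 5. The groups overlapped widely, with hypHSC 2 and 3 below all qHSC libraries and hypHSC 1, 4 and 5 among them. Its log2 fold change was -0.58 (SE 0.33, adjusted p = 0.169, exact permutation p = 0.175). The Fos to Jun ratio in FPKM was 10.2 to 30.1 in hypHSCs and 13.0 to 27.1 in qHSCs, so the ranges nearly coincided.

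Junb (chr8:85699365-85705377, a single exon), a JUN protein that often restrains Jun activity, stood out for its evenness in hypHSCs: 1803, 1885, 1822, 1689 and 1529 normalized counts. In qHSC 1 to 5 it had 2627, 5247, 2840, 1832 and 4881. The hypHSC libraries lay below the qHSC libraries apart from qHSC 4, which fell between hypHSC 3 and hypHSC 2. Junb thus differed by -0.89 on the log2 scale (SE 0.27, adjusted p = 0.0187, exact permutation p = 0.0159), again short of the fold for a call. It was -1.09 (adjusted p = 0.00389) without qHSC 4 and -1.26 (adjusted p = 0.00286) without qHSC 1 and 4, both past the call, and -0.50 (adjusted p = 0.151) after correction for GC content.

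Jund (chr8:71150389-71153265, a single exon), the JUN subunit present in resting cells, had 656, 702, 443, 1363 and 1071 normalized counts in hypHSCs and 565, 574, 766, 830 and 876 in qHSCs. Its groups overlapped and its log2 fold change of 0.14 (SE 0.30, adjusted p = 0.714, exact permutation p = 0.659) was well within the spread; it was negative with equal totals (-0.21), with the reference genes (-0.79) and without hypHSC 4 (-0.054). The libraries carry no strand, and 52.61% of the exon bases of Jund are shared with the antisense gene Gm11175, so its reads cannot be assigned with certainty. The same holds for 16.56% of the exon bases of Jun (antisense Junos), 13.36% of Junb (Prdx2 and Gm65321), 3.57% of Zfp36 and 1.14% of Dusp1, and for none of Fos, Fosb, Egr1, Atf3 and Ier2.

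Atf3 (chr1:190902493-190950236, 4 exons) was the gene that differed most and in the opposite direction. Its normalized counts were 17682, 25840, 20691, 22711 and 17276 in hypHSC 1 to 5 and 2806, 1681, 1542, 9045 and 4959 in qHSC 1 to 5. Every hypHSC library had more Atf3 than every qHSC library, including qHSC 4, the highest of them. Atf3 was 6.47-fold higher in hypHSCs (log2 fold change 2.69, SE 0.43, adjusted p = 0.000401, exact permutation p = 0.00794). In falling order of Atf3 count, the macrophage marker sums were 75556 in qHSC 4, 5500 in qHSC 5, 34984 in qHSC 1, 2950 in qHSC 2 and 6515 in qHSC 3. The part of macrophage content in the Atf3 counts was not tested. Without qHSC 1 and 4 the log2 fold change was 3.14 (adjusted p = 0.000208), and over all 27 alternatives it was 1.75 to 3.14 and called each time.

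The make-up of the AP-1 family transcripts differed accordingly. Of the summed FPKM of Fos, Fosb, Fosl1, Fosl2, Jun, Junb, Jund and Atf3, Fos took 56.5% to 68.8% in hypHSC libraries and 82.7% to 89.9% in qHSC libraries. Atf3 took 20.7% to 32.1% and 1.76% to 4.62%. Neither range overlapped between the groups, and since the shares add to 100% one gene's gain is in part another's loss. The ratio of Fos to Atf3, which does not depend on how libraries are scaled, lay between 1.76 and 3.33 in hypHSCs and between 19.4 and 49.3 in qHSCs. The summed FPKM of the 8 genes overlapped, at 648 to 884 in hypHSCs and 745 to 2466 in qHSCs.

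**Figure D3:**
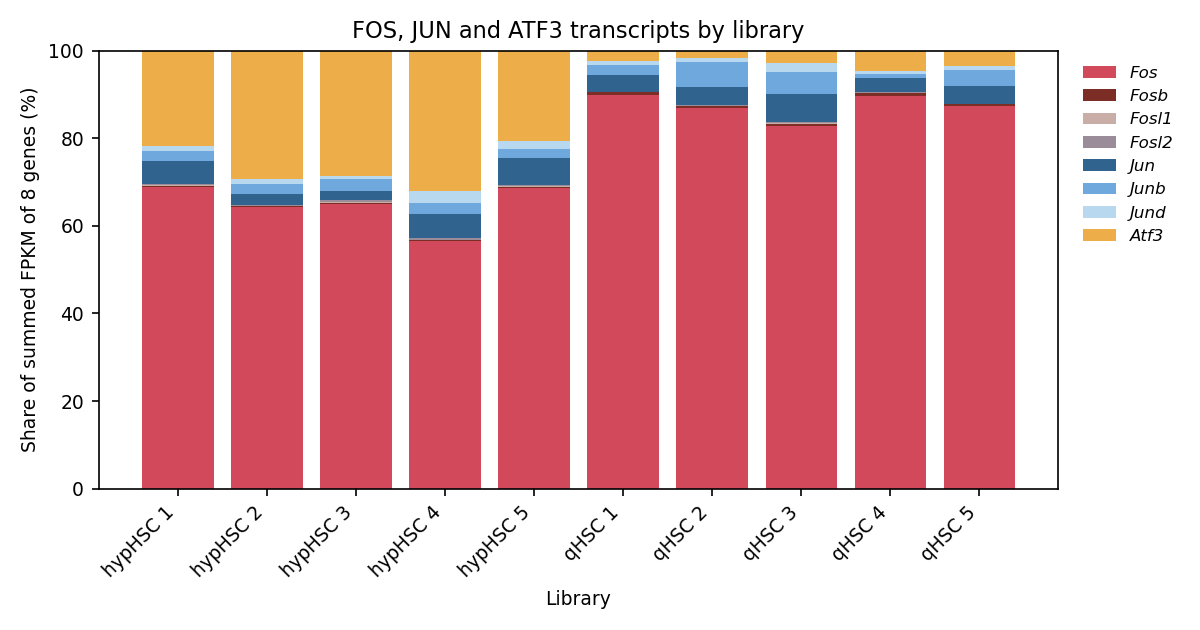
Share (%) of each of 8 AP-1 family genes in their summed FPKM, 1 bar per library. Fos (red) takes most of every bar, and Atf3 (yellow) takes 20.7% to 32.1% in hypHSCs and at most 4.62% in qHSCs.

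Of the other possible AP-1 partners (ATF, BATF and MAF proteins, with Fosl1 and Fosl2), 11 of 12 were tested, with 4 called higher, 1 lower and 6 not called and a median log2 fold change of 0.29, beside 17.8% higher and 21.7% lower among all genes tested. Batf, which pairs with JUN proteins in immune cells, rose 2.87 on the log2 scale (adjusted p = 0.000182) and Batf3, needed for some dendritic cells, rose 2.70 (adjusted p = 0.000773). Maff, a small MAF protein, rose 1.12 (adjusted p = 0.0188), and Batf2 fell by 1.86 (adjusted p = 0.0295). These rises went with the macrophage markers given above, whose part was not tested.

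Egr1 (chr18:34992876-34998034, 2 exons) had 8043, 2383, 2178, 2739 and 4143 normalized counts in hypHSC 1 to 5 and 5625, 5482, 3705, 11662 and 9120 in qHSC 1 to 5. Of the hypHSC libraries 3 lay below all qHSC libraries, whereas hypHSC 1, the library with 12.8% mitochondrial reads, was above 3 of the 5 qHSC libraries. The log2 fold change was -0.94 (SE 0.40, adjusted p = 0.0736, exact permutation p = 0.0794). It became -1.24 (adjusted p = 0.0127) without hypHSC 1 and -1.14 (adjusted p = 0.0419) without qHSC 3, either of which made it a call. The relatives Egr2 and Egr3 were not called, with log2 fold changes of 0.67 (adjusted p = 0.244) and 1.86 (adjusted p = 0.0637).

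Ier2 (chr8:85386180-85389483, a single exon) had the lowest adjusted p of the 10 genes. It had 950, 498, 334, 499 and 796 normalized counts in hypHSC 1 to 5 and 1864, 2296, 1856, 2989 and 2443 in qHSC 1 to 5. All qHSC libraries were well above all hypHSC libraries, by a mean of 3.91-fold (log2 fold change -1.97, SE 0.28, adjusted p = 0.000177, exact permutation p = 0.00794). It was called lower under every one of the 27 alternatives, between -1.58 and -2.91. Other IER genes differed from it: Ier3 had a log2 fold change of 0.06 (adjusted p = 0.923) and Ier5 rose 2.23 (adjusted p = 0.000399).

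Dusp1 (chr17:26724565-26727450, 4 exons) had 3392, 3011, 2899, 3129 and 4220 normalized counts in hypHSC 1 to 5 and 2337, 1905, 1601, 4520 and 2092 in qHSC 1 to 5. All hypHSC libraries exceeded all qHSC libraries but qHSC 4, which was the highest of all 10. It differed by 0.51 on the log2 scale (SE 0.26, adjusted p = 0.127, exact permutation p = 0.111), and it was -0.43 when libraries were scaled on the reference genes. Without qHSC 1 and 4 it was 0.83 (adjusted p = 0.0112), still short of the fold for a call. Of 8 other MAP kinase phosphatases tested (of 9), 2 were called higher, 2 lower and 4 not called, shares near the 17.8% and 21.7% of all genes. Dusp2, a phosphatase of immune cells, rose from 11.3 ± 8.42 to 734 ± 228 normalized counts (log2 fold change 6.41, adjusted p = 4.59e-05) and Dusp5 rose 1.03 (adjusted p = 0.0481). Dusp10, which acts on JNK and p38, fell by 3.66 on the log2 scale (adjusted p = 1.07e-05), and Dusp6, which acts on ERK, fell by 2.17 (adjusted p = 0.000112).

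Zfp36 (chr7:28076209-28079678, 2 exons) was the most uneven of the 10 genes in hypHSCs. It had 31282, 69702, 51525, 10771 and 6065 normalized counts in hypHSC 1 to 5, an 11.5-fold range, and 82275, 79795, 36666, 91160 and 43053 in qHSC 1 to 5. The hypHSC libraries 4 and 5 lay far below every qHSC library and hypHSC 1 just below them, while hypHSC 2 and 3 lay among them. The log2 fold change of -1.40 (SE 0.63, adjusted p = 0.0859, exact permutation p = 0.103) was larger than that of Fos but not distinguished from the spread between preparations. It was -1.79 (adjusted p = 0.0301) without hypHSC 2 and -1.30 (adjusted p = 0.049) after correction for GC content, both calls. The ratio of Zfp36 to Dusp1 in FPKM ranged from 1.36 to 22.0 in hypHSC libraries and from 19.1 to 39.8 in qHSC libraries.

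The paralogs of Zfp36 went in opposite directions. Zfp36l1 fell by 1.54 on the log2 scale, from 9471 ± 1236 to 3285 ± 682 normalized counts (adjusted p = 4.44e-05), and Zfp36l2 rose 1.76, from 626 ± 61.5 to 2205 ± 767 (adjusted p = 7.26e-05). Of 11 mRNAs with AU-rich elements that ZFP36 is known to bind, 10 were tested, with 6 called higher, 1 lower and 3 not called. Their median log2 fold change was 3.52. Among all genes tested 17.8% were called higher and 21.7% lower. Cxcl2 rose 5.31, Tnf 4.79, Ccl3 4.39 and Ccl4 3.71 on the log2 scale, and Ccl2 fell by 1.93. These cytokines are also made by macrophages, whose markers rose in the same libraries, and no part of either was tested.

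**Figure D4:**
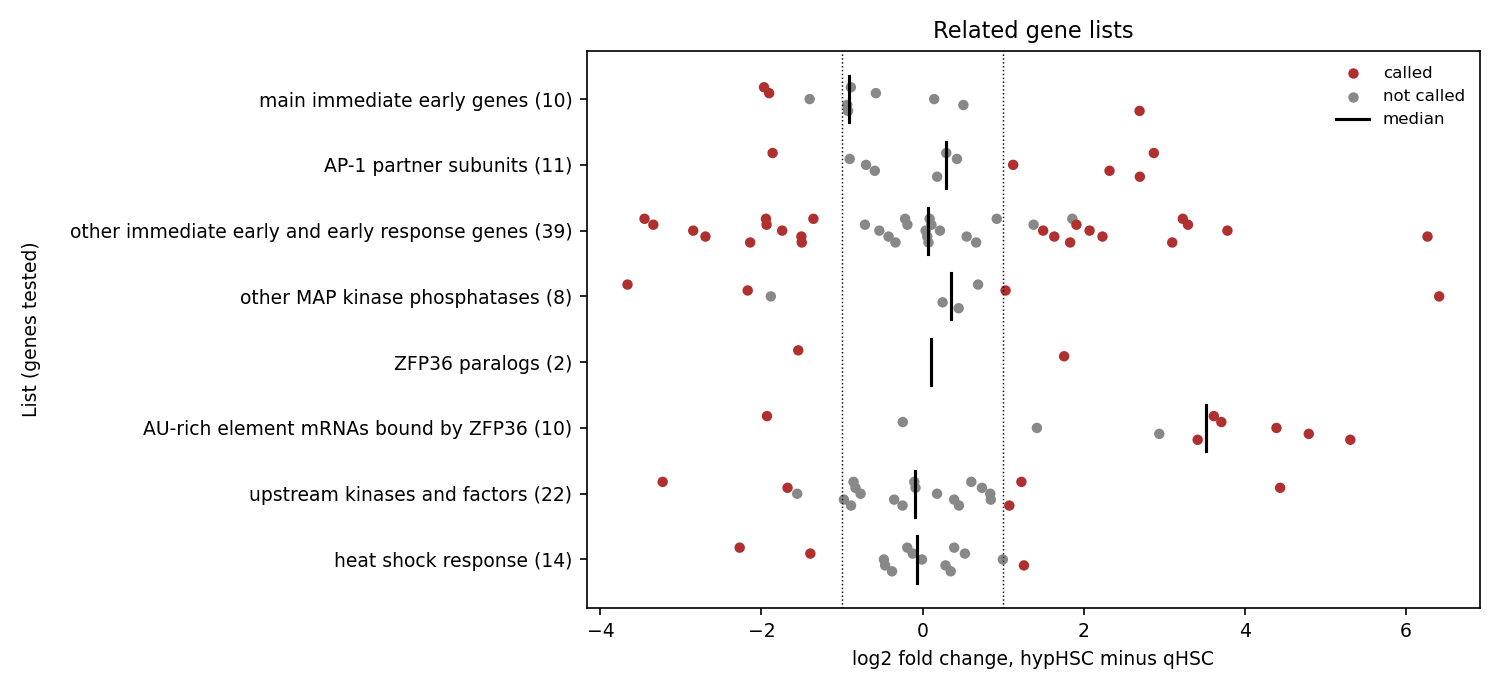
Log2 fold change (hypHSC minus qHSC) of each gene tested, by list, with the number tested in brackets. Red points were called, grey points not, and a black bar is the median of a list. The 10 genes lie mostly left of 0, and the AU-rich element mRNAs lie mostly right of it, with a median of 3.52; the point of Npas4 at 6.27 has 0 reads in qHSCs and depends on the pseudocount.

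Among 41 other immediate early and early response genes, 39 were tested, with 11 called higher, 11 lower and 17 not called and a median log2 fold change of 0.07, where 17.8% of all genes tested were called higher and 21.7% lower. Npas4, named after its values were seen, had 0 reads in all qHSC libraries, and with this gene at its lower bound the median was also 0.07. Among those averaging 100 normalized counts or more in a group, the largest rises were those of Tnfaip3, which restrains NF-kB signalling (3.78 on the log2 scale), Id2 (3.30), Btg1 (3.23) and Gadd45b (3.10). The largest falls were those of the matricellular genes Ccn1 (fell by 3.45) and Ccn2 (fell by 3.34), the cytokine signalling inhibitor Socs3 (fell by 2.85) and Phlda1 (fell by 2.70). Scaled on the reference genes, 6 of the list were called higher and 16 lower, and with limma treat 9 higher and 5 lower. Upstream of the 10 genes, 22 of 23 kinases and factors were tested and 17 were not called, among them Srf (log2 fold change -1.56, adjusted p = 0.0553) and Creb1 (-0.86, adjusted p = 0.0626). The 3 called higher were Rps6ka1 (4.44), Map2k2 (1.23) and Mapkapk2 (1.08), and of the 2 called lower Mapk9, encoding JNK2, fell by 1.68. Over all genes tested 17.8% were called higher and 21.7% lower. Of 14 heat shock genes, another group raised by cell stress, 11 were not called and 3 were, where 39.5% of all genes tested were called: Hsp90aa1 rose 1.26, Dnajb1 fell by 2.27 and Dnajb4 fell by 1.39.

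The genes also differed in how evenly they were expressed within a group. Of the tested genes that averaged 100 normalized counts or more in the group, 0.896% had a smaller standard deviation (log2 scale) than Junb in the 5 hypHSC libraries, and 6.47%, 7.36% and 9.21% had a smaller one than Dusp1, Fos and Atf3. In qHSCs the same 4 genes were among the more variable, with 90.9%, 88.6%, 92.7% and 96.7% of genes steadier than they were. Fosb was also variable in qHSCs (94.6% of genes steadier) and less so in hypHSCs (40.8%). Zfp36 was variable in both groups (92.8% of genes steadier in hypHSCs and 89.8% in qHSCs). These percentages compare 10263 genes in hypHSCs and 10351 in qHSCs and are descriptions of 5 libraries each.

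In qHSCs the genes went up and down together by library. Their deviations from the group mean were highest in qHSC 4 for 8 of the 10 genes and lowest in qHSC 3 for 8 of the 10, with mean deviations of 0.61 and -0.62 on the log2 scale. The exceptions at the top were Junb, which was lowest in qHSC 4, and Jund, which was highest in qHSC 5. The mice of qHSC 3 and qHSC 4 were both 34 weeks old. The macrophage marker sum of qHSC 4, 75556, was the largest among qHSCs. That of qHSC 3, 6515, was above those of qHSC 2 (2950) and qHSC 5 (5500). The part of macrophage content in these deviations was not tested. The median Pearson correlation over the 45 pairs of genes was 0.66 across the 5 qHSC libraries and 0.16 across the 5 hypHSC libraries, as a description of values that share library and size factor. In hypHSCs no library was high or low throughout: hypHSC 3 was lowest for 5 genes and highest for 0, and hypHSC 1, 2 and 5 were each highest for 3. There Zfp36 ran against Jun and Jund, being high in hypHSC 2 and 3, where those were low, and low in hypHSC 4 and 5, where they were high.

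**Figure D5:**
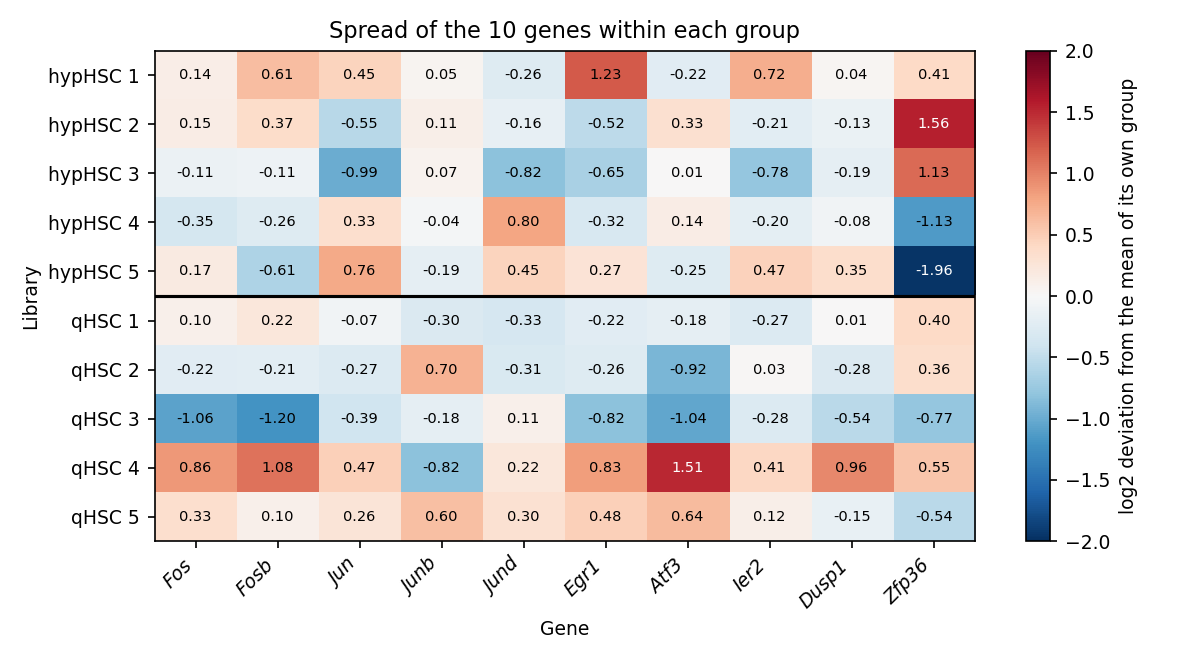
Deviation (log2) of each gene in each library from the mean of its own group, red above and blue below, with hypHSC libraries above the black line and qHSC libraries below it. The row of qHSC 4 is red but for Junb, the row of qHSC 3 is blue but for Jund, and the hypHSC rows are mixed.

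The genes whose deviations from the group means were most like the mean deviation of the 10 genes, among 10782 genes over 10 libraries, were Rassf3 (Pearson r = 0.91), Ensa (r = 0.90), Noct (r = 0.90), Actg1 (r = 0.89) and the entry that joins Foxp3 and Flicr (r = 0.88). Their levels differed from each other, from 412 ± 56.6 normalized counts for the Foxp3 and Flicr entry in hypHSCs to 65900 ± 7921 for Actg1. They are the highest of 10782 correlations over few libraries, and whether such values would arise at random was not tested.

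Within hypHSCs the mean counts at 13 and 12 diet weeks (2 and 3 libraries) were 54320 and 46572 for Fos, 595 and 340 for Fosb and 50492 and 22787 for Zfp36. Those of Atf3 were 21761 and 20226, and those of Dusp1 3201 and 3416. With 2 libraries against 3 an exact permutation test cannot give a p under 0.2, so no difference was tested, and the 13-week libraries were also those with the most mitochondrial reads. With the 12-week libraries alone against all qHSC libraries, Egr1 (log2 fold change -1.17, adjusted p = 0.0322) and Zfp36 (-2.06, adjusted p = 0.0277) were called lower in hypHSCs, besides Fosb and Ier2.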

How the data were processed

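RNA of sorted cells gave unstranded oligo-dT libraries, 5 hypHSC and 5 qHSC. The authors mapped reads to mm39 (GRCm39) with STAR, counted them per gene with featureCounts (Subread 1.5.0, FAST DB annotation) and divided counts by DESeq2 size factors; the deposited value per gene and library is this normalized count, a signal. Multiplied by each library's size factor, 100% of values were whole reads (tolerance 0.006), used for depth, FPKM (exon lengths of GENCODE, GRCm39), DESeq2 1.42.0 and edgeR 4.0.16. The 25233 of 62322 entries with a symbol were used, and those that reached 10 normalized counts in 5 or more libraries were tested by limma 3.58.1 (R 4.3.3, intensity trend) on log2(normalized count + 1), with Benjamini-Hochberg adjustment over 14630 genes. Fold changes are on that scale. Exact two-sided permutation tests used 252 arrangements. The method was tested on simulated data. Precision is limited by the 5 preparations a group, which may share animals.

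The 10 genes and the other lists were chosen with earlier results of these data known. The text names all 10 genes, their paralogs, and per list up to 4 called genes with the largest rise and 4 with the largest fall averaging 100 normalized counts or more in a group; Srf, Creb1, Fosl2, Npas4, Col3a1, Col1a2 and the uncalled relatives were named after their values were seen. Alternatives changed the pseudocount, filter, scaling, test, libraries and GC content. Promoter sequences are those of RefSeq (GRCm38.p6), matched to GRCm39.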

Additional observations from a re-analysis of the deposited data

How the results depend on the processing

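Over 27 alternatives, Atf3 was called higher and Ier2 lower each time, and 1 of the 10 genes was called higher each time. The number called lower was 2; it was 6 when scaled to the same total, 7 when scaled on 3 reference genes, 1 with limma treat, 4 with hypHSC at 12 weeks only, and 2 to 4 when 1 library was left out, with 4 without qHSC 3. Among the other early response genes, 11 were called higher (6 when scaled on 3 reference genes, 11 to 12 when 1 library was left out) and 11 lower (5 with limma treat, 16 when scaled on 3 reference genes, 9 to 11 when 1 library was left out). The log2 fold change of Jund turned to -0.21 at the same total, -0.79 on the reference genes and -0.054 without hypHSC 4 (-0.054 to 0.35 with 1 library left out), and that of Dusp1 to -0.43 on the reference genes. Scaling moved all genes together, to a median log2 fold change of -0.54 (total) or -1.12 (reference genes) against -0.20 with the deposited size factors. For the other settings the cause was not tested.

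Replicate numbers are shared by the groups, but same-numbered libraries deviated together only weakly (correlations of 0.00815 to 0.129, and 1 of 5 correlated best with its own number), so they were not taken as pairs. With a replicate block 5786 genes were called against 5779 without it, and 1 of the 10 genes was called higher and 2 lower in both. The fit without qHSC 1 and 4 was chosen after seeing the data; it called 3 of the 10 genes lower (Fosb, Ier2 and Junb) and 1 higher. Counting error is small at these depths, where 3 reads equal 2.25 to 4.54 normalized counts.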
